A study of Mus musculus with 21 samples.

Results

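The genes described are 9 genes of oligodendrocytes and their myelin sheath: Mbp, Mobp, Mal, Cnp, Mog, Mag, Cldn11, Olig1 and Sox10. They were taken by gene symbol, by a rule that uses no measured value, although the list was drawn up with earlier results of these data known. They are 9 of the 12393 genes on the array that a probe set names alone. The 9 genes are read by 23 probe sets, and the probe set with the highest mean over all arrays stood for each gene. All 9 genes were above the lowest value of the data (2.04 on the log2 scale) on all 21 arrays. So were all 11 neuronal and all 10 astrocyte markers listed further on, so this does not test the cell type.

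Oligodendrocytes wrap axons with a membrane rich in lipid and in a few abundant proteins. Mbp holds the inner faces of the membrane together, Mog and Mag sit on its outer and innermost surfaces, Cnp keeps cytoplasmic channels open within the sheath, and Cldn11 forms its tight junctions. Sox10 and Olig1 are transcription factors of the lineage, and Sox10 switches on many myelin genes. In the cortex, myelin is sparse in the upper layers and dense next to the white matter, so a dissection that takes more or less white matter carries more or less myelin RNA. In a bulk sample, fewer oligodendrocytes and less RNA per oligodendrocyte cannot be told apart.

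Cerebral cortex was taken from 21 mice of a mixed C57BL/6J x C3HeJ background, 2 weeks after they came off a doxycycline diet. The mice carried a TDP-43 transgene that needs the tetracycline transactivator tTA to be expressed, and doxycycline keeps it silent. The dNLS bigenic group (n = 5) carried TDP-43 with a deleted nuclear localization signal (line NLS4) and tTA. The dNLS monogenic group (n = 4) carried the same transgene without tTA, and the WT bigenic group (n = 4) carried wild-type TDP-43 (line WT12) and tTA. The nontransgenic group (n = 8) carried neither, and came from line NLS4 (6 mice) and line WT12 (2 mice). No group carried tTA alone, so a change in both bigenic groups cannot be assigned to TDP-43 or to tTA. The labels do not name the promoter that drives tTA. These lines are known from work with the promoter of Camk2a, a gene of forebrain neurons. Each bigenic group is 1 line, so the TDP-43 variant and the insertion site of the transgene cannot be told apart. The groups also differed in sex: 4 of the 5 dNLS bigenic mice, 3 of the 4 dNLS monogenic mice, 1 of the 4 WT bigenic mice and 4 of the 8 nontransgenic mice were labelled male. Sex as labelled was therefore a term in the main analysis, and 1 array labelled male, nontransgenic 1, carried the transcripts of a female. Ages are not given in the labels used here.

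The arrays differed in how far towards the 5′ end of transcripts the labelled RNA reached. RNA was amplified from the poly(A) tail, and the difference between the 3′ and 5′ probe sets of beta-actin measures how much of the 5′ end was lost (a log2 difference, called 3′ bias here). It ranged from 1.34 to 2.30 in the dNLS bigenic group, from 1.56 to 3.13 in the dNLS monogenic group, from 1.37 to 1.43 in the WT bigenic group and from 1.46 to 8.20 in the nontransgenic group. Nontransgenic 6 (8.20) and nontransgenic 4 (4.70) were the 2 highest arrays. The change of each of the 9 genes against nontransgenic mice is given with and without them.

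Promoter windows are shown for 4 myelin genes whose levels rose and fell together over the arrays, as given further on. They are the 250 bases before the start of the first listed transcript of the gene in RefSeq (build GRCm38.p6), 5′ to 3′ on the strand of the gene. Capitals mark the letters ACAAAG or their reverse complement CTTTGT, the core that Sox-family factors such as Sox10 bind.
Mobp, chr9:120149492-120149741, plus strand: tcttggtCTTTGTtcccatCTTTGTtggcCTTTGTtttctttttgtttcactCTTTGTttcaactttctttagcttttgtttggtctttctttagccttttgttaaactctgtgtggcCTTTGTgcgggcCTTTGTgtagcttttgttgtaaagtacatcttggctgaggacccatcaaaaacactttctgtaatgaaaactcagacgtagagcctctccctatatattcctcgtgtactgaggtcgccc
Mag, chr7:30914864-30915113, minus strand: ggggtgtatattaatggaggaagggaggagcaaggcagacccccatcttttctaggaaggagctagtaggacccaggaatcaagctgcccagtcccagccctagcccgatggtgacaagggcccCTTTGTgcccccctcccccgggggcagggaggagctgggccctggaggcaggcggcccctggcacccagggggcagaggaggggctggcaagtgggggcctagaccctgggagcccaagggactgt
Cnp, chr11:100574689-100574938, plus strand: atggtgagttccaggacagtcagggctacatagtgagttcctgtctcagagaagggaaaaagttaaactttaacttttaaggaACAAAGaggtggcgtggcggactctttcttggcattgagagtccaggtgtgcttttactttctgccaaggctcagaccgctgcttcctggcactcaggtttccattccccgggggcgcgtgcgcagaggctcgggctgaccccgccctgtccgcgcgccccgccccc
Mog, chr17:37023399-37023648, minus strand: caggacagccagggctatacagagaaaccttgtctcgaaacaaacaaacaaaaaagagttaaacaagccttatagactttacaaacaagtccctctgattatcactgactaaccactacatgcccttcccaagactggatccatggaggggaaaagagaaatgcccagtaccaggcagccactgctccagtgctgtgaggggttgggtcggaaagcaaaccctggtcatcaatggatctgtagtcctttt
The Mobp window held the letters 6 times, all as CTTTGT, the Mag and Cnp windows held them once, and the Mog window did not hold them. Neither did the windows of Mal and Cldn11. Of 32851 promoter windows of the same length, 16.5% held the letters at least once, and 1, that of Mobp, held them 6 or more times. The number 6 was chosen after the Mobp window had been read. A match of these letters is a description of the sequence and not a binding site. No window of Mbp, Olig1 or Sox10 was among those read for these genes, so the letters were not counted for them. Whether this reflects the choice of windows or their absence from the annotation was not tested.

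In the 5 comparisons of the 4 genotype groups, 1 of the 9 genes, Mbp, passed the test, in 1 comparison. A change is called where the limma test, with Benjamini-Hochberg adjustment over all 12393 genes, gives an adjusted p under 0.05. In dNLS bigenic against nontransgenic cortex, 1 of the 9 genes passed, against 22.3% of all genes. The share called lower was 11.5% of all genes, and the share called higher was 10.8%. Over the 9 genes, changes ranged from -0.40 (Sox10) to 0.18 (Mobp) on the log2 scale with a median of -0.04, and the median over all genes was 0. In no comparison did the levels of the 2 groups fail to overlap for any of the 9 genes, whereas the share of all genes without overlap was 12.5% between dNLS bigenic and nontransgenic arrays, 5.25% between WT bigenic and nontransgenic, 22.4% between dNLS bigenic and WT bigenic, 19.8% between dNLS bigenic and dNLS monogenic and 0.0646% between dNLS monogenic and nontransgenic arrays.

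**Figure D1:**
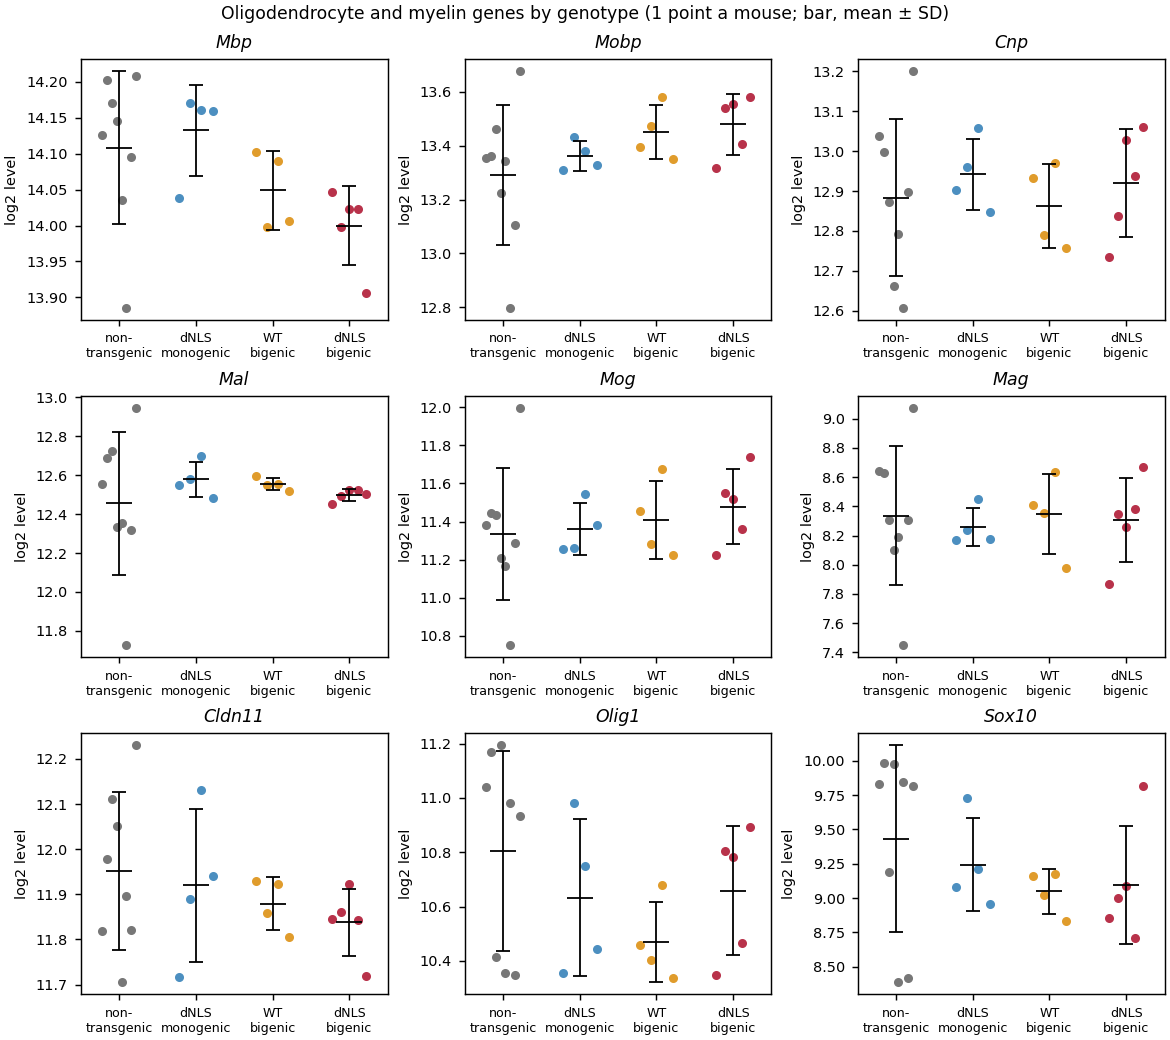
The log2 level of each of the 9 genes (vertical axis, a separate scale in each panel) is plotted for each mouse in the 4 genotype groups, with the group mean and SD as bars. The groups overlap in every panel, and for Mog, Mag and Mal the nontransgenic points spread wider than those of the other groups.

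Mbp encodes myelin basic protein, the cytoplasmic glue of compact myelin. Its levels in the 5 dNLS bigenic mice were 14.05, 13.998, 14.02, 14.02 and 13.91. The 4 dNLS monogenic mice measured 14.04, 14.17, 14.16 and 14.16, and the 4 WT bigenic mice measured 14.10, 13.998, 14.09 and 14.01. The 8 nontransgenic mice ran from 13.89 (nontransgenic 6) through a median of 14.14 to 14.21. All 5 dNLS bigenic mice lay below the nontransgenic mean of 14.11, and the lowest nontransgenic mouse lay below all of them. Mbp was lower in dNLS bigenic cortex by a log2 change of -0.13 ± 0.04 (SE), with a 95% interval of -0.23 to -0.04 (limma, adjusted p = 0.0398). On the linear scale the interval ran from 0.856 to 0.973 of the nontransgenic level. Against dNLS monogenic mice the change was -0.14 ± 0.05 (limma, adjusted p = 0.0863), and against WT bigenic mice it was -0.09 ± 0.05 (limma, adjusted p = 0.394), so neither passed. The call did not hold when each array was centred on its median (adjusted p = 0.326), after quantile normalization (0.151), without the sex term (0.109), with nontransgenic mice of line NLS4 alone as controls (0.0698), or with the mean of the gene's probe sets (log2 change 0.016). It was also lost on leaving out any 1 of 14 arrays (all 5 dNLS bigenic arrays, dNLS monogenic 3, nontransgenic 1, 2, 3, 4 and 7, and WT bigenic 1, 2 and 4), with adjusted p values up to 0.125. Without nontransgenic 4 and 6 it was -0.16 (adjusted p = 0.00416).

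Mobp encodes a small basic protein of compact myelin, and Mal a proteolipid that takes part in carrying membrane to the sheath. Mobp measured 13.32, 13.54, 13.55, 13.40 and 13.58 in the dNLS bigenic mice, and 13.39, 13.47, 13.58 and 13.35 in the WT bigenic mice. In the nontransgenic mice it ran from 12.80 (nontransgenic 6) through a median of 13.35 to 13.68. The dNLS bigenic mice lay in the upper part of that range, and all 5 lay above the nontransgenic mean of 13.29. Without nontransgenic 4 and 6 that mean was 13.38, and 4 of the 5 lay above it. The log2 change was 0.18 ± 0.11 (limma, adjusted p = 0.292; interval -0.05 to 0.41), of the opposite sign to that of Mbp, and 0.10 without the 2 arrays (limma, adjusted p = 0.472). Mal was between 12.45 and 12.53 in the 5 dNLS bigenic mice, between 12.52 and 12.60 in the 4 WT bigenic mice and between 11.73 and 12.95 in the 8 nontransgenic mice. Its 95% interval of change against nontransgenic mice was -0.29 to 0.29. The change was -0.12 without nontransgenic 4 and 6 (limma, adjusted p = 0.389), when all 5 dNLS bigenic mice lay below the nontransgenic mean.

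Cnp encodes a cyclic nucleotide phosphodiesterase of the uncompacted parts of the sheath. Its level was 12.74 to 13.06 in dNLS bigenic mice, 12.85 to 13.06 in dNLS monogenic mice, 12.76 to 12.97 in WT bigenic mice and 12.61 to 13.20 in nontransgenic mice. The nontransgenic range held the other 3, and the 95% interval of the change between dNLS bigenic and nontransgenic mice was -0.16 to 0.23. The change was 0.03, and -0.05 without nontransgenic 4 and 6, and passed in neither case. Cldn11, the tight junction protein of the sheath, was 11.72 to 11.92 in dNLS bigenic mice and 11.71 to 12.23 in nontransgenic mice. All 5 dNLS bigenic mice lay below the nontransgenic mean of 11.95, and the log2 change was -0.13 ± 0.08 (limma, adjusted p = 0.29), and -0.12 without nontransgenic 4 and 6 (limma, adjusted p = 0.399). Cldn11 thus had a change of the same size as Mbp with a wider error.

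Mog and Mag are immunoglobulin-like proteins on the surface of the sheath, and Mag faces the axon. Mog measured 11.22, 11.55, 11.52, 11.36 and 11.74 in the dNLS bigenic mice, and between 10.75 and 11.996 in the nontransgenic mice with a median of 11.34. Mag measured 7.87, 8.35, 8.26, 8.38 and 8.67 in the dNLS bigenic mice, and between 7.45 and 9.07 in the nontransgenic mice with a median of 8.30. For both genes the nontransgenic range held every mouse of the other groups. The 95% intervals of the change against nontransgenic mice were -0.18 to 0.48 for Mog and -0.49 to 0.41 for Mag. The change of Mog was 0.15, and 0.05 without nontransgenic 4 and 6. That of Mag was -0.04, and -0.20 without them, and 0 of these 4 values passed.

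Olig1 and Sox10 showed a different spread. In the nontransgenic group, Olig1 measured 11.04, 11.17, 10.41, 11.19, 10.36, 10.98, 10.35 and 10.93 in mice 1 to 8. Sox10 measured 9.83, 9.98, 9.19, 9.98, 8.39, 9.84, 8.42 and 9.82 in the same mice. Both genes were thus low in nontransgenic 3, 5 and 7 and high in the other 5 on these probe sets. The 3 lower mice include both lines and both labelled sexes. The 3′ bias was 2.16, 1.46 and 1.47 in mice 3, 5 and 7. It was 2.53, 3.27, 4.70 and 8.20 in mice 1, 2, 4 and 6, and 1.62 in mouse 8. On the Sox10 probe set of second highest mean, nontransgenic 6 (5.27) lay near mice 5 (4.79) and 7 (5.25) and below mouse 3 (5.94). In the other groups Olig1 ran from 10.34 to 10.98 and Sox10 from 8.71 to 9.82. In dNLS bigenic against nontransgenic mice the log2 change was -0.18 ± 0.17 for Olig1 (limma, adjusted p = 0.578). For Sox10 it was -0.40 ± 0.30 (limma, adjusted p = 0.422), with an interval of -1.03 to 0.22. The interval for Sox10 was the widest of the 9 and ran from 0.49 to 1.16 of the nontransgenic level. Without nontransgenic 4 and 6 the changes were -0.09 for Olig1 (limma, adjusted p = 0.98) and -0.25 for Sox10 (limma, adjusted p = 0.742).

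WT bigenic and dNLS monogenic cortex were compared with nontransgenic cortex to see what wild-type TDP-43 with tTA, and the undriven transgene, did to the same genes. In WT bigenic mice 0 of the 9 genes passed limma's test, 0 had an unadjusted p under 0.05, and 2.23% of all genes were called. Of all genes called there, 30.8% were higher in WT bigenic mice, and 14.5% after each array was centred on its median. The changes ran from -0.33 (Sox10) to 0.17 (Mobp). In dNLS monogenic mice 0 of the 9 genes passed, 0 had an unadjusted p under 0.05, and 0 of all 12393 genes were called (0%), with 196 at an unadjusted p under 0.05. The changes ran from -0.24 (Sox10) to 0.09 (Mal).

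Within the transgenic mice, dNLS bigenic cortex was compared with WT bigenic cortex, where both groups carry tTA, and with dNLS monogenic cortex, where tTA is the difference within 1 line. Against WT bigenic mice 0 of the 9 genes passed limma's test, 0 had an unadjusted p under 0.05, and 10.8% of all genes were called. Against dNLS monogenic mice 0 passed, 1 (Mbp) had an unadjusted p under 0.05, and 14.3% of all genes were called. The 95% intervals of the 9 genes in these 2 comparisons ran, at their widest, from 0.546 to 1.61 of the level of the second group, both bounds set by Sox10. In a moderated F test over the 4 groups 0 of the 9 genes passed (limma, smallest adjusted p = 0.131, Mbp), against 19.1% of all genes. With array weights, with the 3′ bias as a term, or without nontransgenic 4 and 6, Mbp passed against dNLS monogenic mice and in the F test. It also passed in both without nontransgenic 6 alone, and against dNLS monogenic mice without dNLS monogenic 1. The comparisons with dNLS bigenic mice share those 5 arrays and those with nontransgenic mice share those 8, so their values are not independent of one another.

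**Figure D2:**
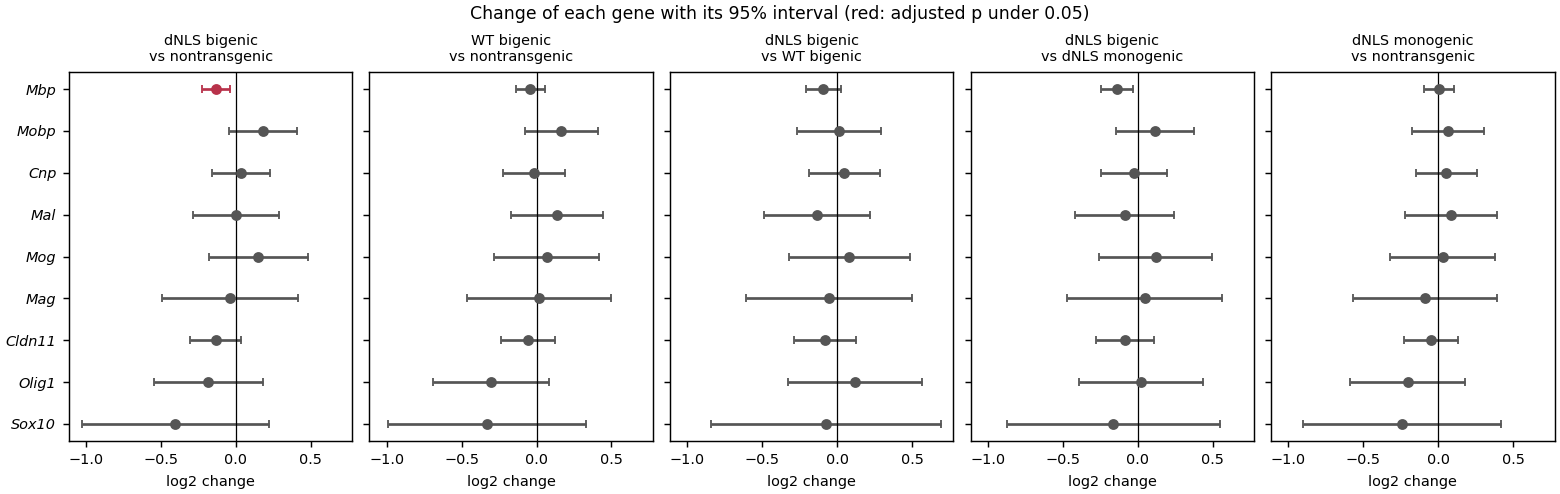
The log2 change of each of the 9 genes is plotted with its 95% interval for the 5 comparisons, on 1 horizontal scale, and red marks an adjusted p under 0.05. Mbp in dNLS bigenic against nontransgenic mice is the 1 red point, at -0.13, and the intervals of Sox10 are the widest in each panel.

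The probe sets of a gene did not give the same picture. Of the 8 probe sets for Mbp, 6 were lower and 2 higher in dNLS bigenic than in nontransgenic mice, and 2 passed limma's test over all 20380 probe sets, of which 19.7% were called. The 2 were the one with the highest mean level, which stands for the gene above (adjusted p = 0.0446), and the one of rank 6 in mean level. The latter measured 10.66, 10.79, 10.64, 10.26 and 9.92 in the dNLS bigenic mice and from 10.58 to 11.39 in the nontransgenic mice, with a median of 10.99. The 2 groups overlapped, and the log2 change was -0.63 ± 0.17 (limma, adjusted p = 0.0126). The Mbp probe set of rank 7 had a change of 1.30 ± 0.87 in the other direction (limma, adjusted p = 0.38). No other probe set of the 23 passed in that comparison. In the other comparisons 0 of the 23 passed limma's test, where the share of all probe sets called was 1.92% (WT bigenic against nontransgenic), 8.64% (dNLS bigenic against WT bigenic), 12% (dNLS bigenic against dNLS monogenic) and 0% (dNLS monogenic against nontransgenic). Of the 3 probe sets for Sox10, 1 was at the lowest value on all 21 arrays.

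Several of the dimmer probe sets followed the 3′ bias of the array. The dimmest of the 3 for Mobp fell from 10.9 on its highest array to 2.65 on nontransgenic 6 and 6.61 on nontransgenic 4. Its correlation with the 3′ bias over 21 arrays was r = -0.99 (rho = -0.80, permutation, adjusted p = 7.3e-05 for r and 0.00029 for rho), and r = -0.90 without those 2 arrays. The dimmest of the 3 for Cnp gave r = -0.97 (rho = -0.83, permutation, adjusted p = 7.3e-05 and 0.00011), and r = -0.88 without the 2 arrays. The Mbp probe set of rank 7 gave r = -0.84 (rho = -0.88, permutation, adjusted p = 0.00062 and 0.00011), and r = -0.92 without them. Those of rank 6 and 8 for Mbp did not fall with the bias (r = 0.33 and 0.11). The p values are two-sided, from 100000 permutations, and adjusted over the 22 probe sets that varied. For the bright probe set of Mbp r was -0.23 (rho = 0.26, permutation, adjusted p = 0.45 and 0.37; 0.39 without the 2 arrays). For that of Mobp r was -0.68 (rho = -0.11, permutation, adjusted p = 0.019 and 0.79), and it was 0.06 without the 2 arrays, so that relation rested on them. The same held for the probe sets that stand for Mal (r = -0.70, permutation, adjusted p = 0.033) and Mog (r = -0.56, permutation, adjusted p = 0.042), with 0.27 and 0.04 without the 2 arrays. The Cnp probe set of second highest mean (11.9) also fell with the bias (r = -0.94, permutation, adjusted p = 7.3e-05), with r = -0.69 without them. Olig1 and the bright probe set of Sox10 ran the other way, higher where the bias was higher. Olig1 had r = 0.59 (rho = 0.76, permutation, adjusted p = 0.0018 and 0.00055) and Sox10 had r = 0.61 (rho = 0.79, permutation, adjusted p = 0.00082 and 0.00038), with 0.76 and 0.75 without the 2 arrays. The part of the 3′ bias in the differences between groups was not tested for single genes beyond the fit with the bias as a term. In that fit Mbp was -0.17 (limma, adjusted p = 0.00268).

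**Figure D3:**
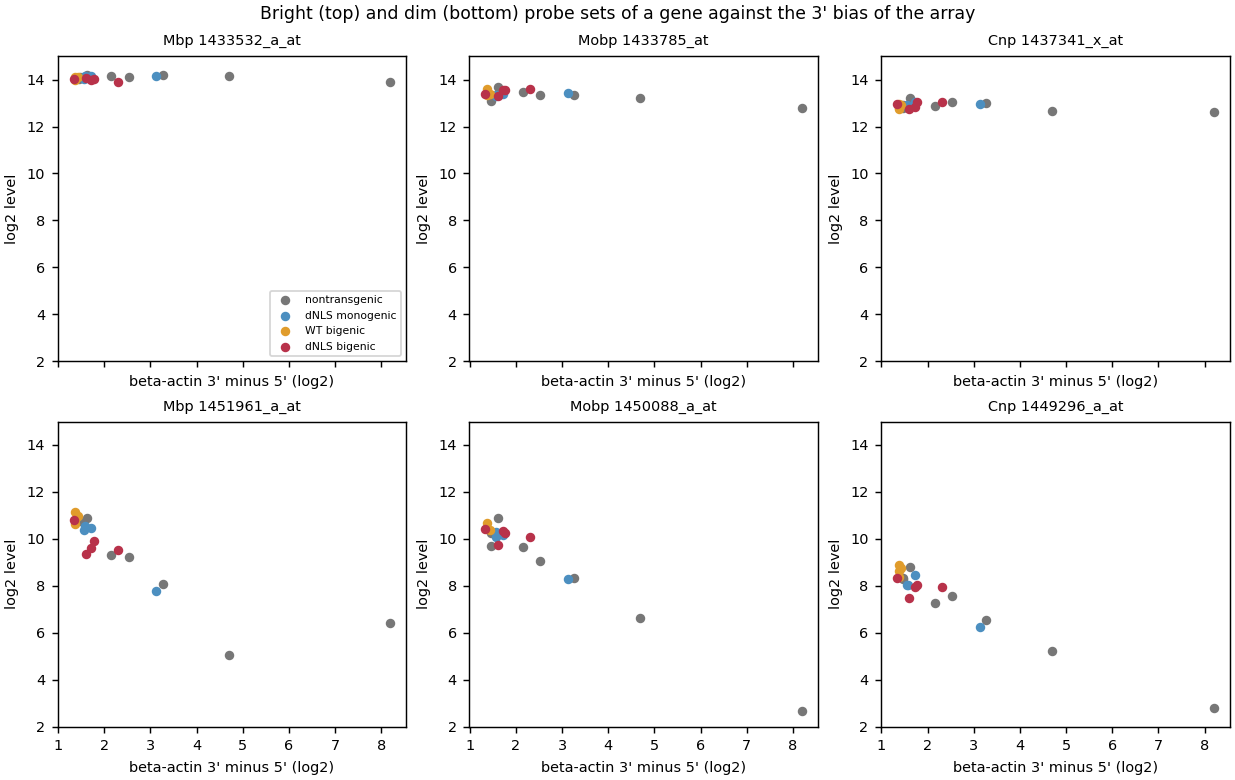
The log2 level of the brightest (top) and of a dim (bottom) probe set of Mbp, Mobp and Cnp is plotted against the beta-actin 3′ minus 5′ difference of the array, 1 point per array, coloured by group. The dim probe set shown is the one of the gene with the largest SD over the arrays. The bright probe sets stay within 12.6 to 14.2, whereas the dim ones shown fall as the bias rises, to 2.65 for Mobp on nontransgenic 6.

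Over the 21 arrays some of the 9 genes varied together, but not as fixed sets. Mog, Mag, Mobp, Cnp and Mal were correlated in each of their 10 pairs, with r from 0.67 to 0.90 and rho from 0.58 to 0.84 (permutation, largest adjusted p = 0.0023 for r and 0.018 for rho, over 36 pairs). Without nontransgenic 4 and 6 the r of these pairs ran from 0.48 to 0.84. Olig1 and Sox10 were correlated with each other, with r = 0.89 (rho = 0.85, permutation, adjusted p = 9e-05 for r), and 0.86 without the 2 arrays. Mbp went with Cldn11 (r = 0.66, rho = 0.63, permutation, adjusted p = 0.0035 for r and 0.011 for rho; 0.73 without the 2 arrays) and with Mal (r = 0.64, rho = 0.58, permutation, adjusted p = 0.0032 for r and 0.018 for rho; 0.58 without them). In all, 13 of the 36 pairs passed by both r and rho. With all 21 arrays the 14 pairs of a myelin gene with a transcription factor had a median r of 0.20, and 0 of these 14 passed. Without the 2 arrays, where no test was run, their median was 0.52 and r reached 0.73 (Cnp with Olig1). Mal with Cldn11 had r = 0.42, and 0.83 without the 2 arrays. Within groups, Mbp had r of 0.72 with Mog, 0.65 with Mag, 0.67 with Mobp, 0.55 with Cnp, 0.77 with Mal and 0.59 with Cldn11. The pairs share arrays, RNA and the 3′ bias of each array.

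The joint variation lay mostly within the nontransgenic group. Nontransgenic 8 was the highest of the 21 arrays for 7 of the 9 genes, all but Olig1 and Sox10. Nontransgenic 6 was the lowest for 6 of them: Mbp, Mobp, Mal, Cnp, Mog and Mag. Nontransgenic 8 had a 3′ bias of 1.62 and nontransgenic 6 had the highest. Nontransgenic 7, of the same line and sex as nontransgenic 8, measured 11.29 for Mog where nontransgenic 8 measured 11.996.

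**Figure D4:**
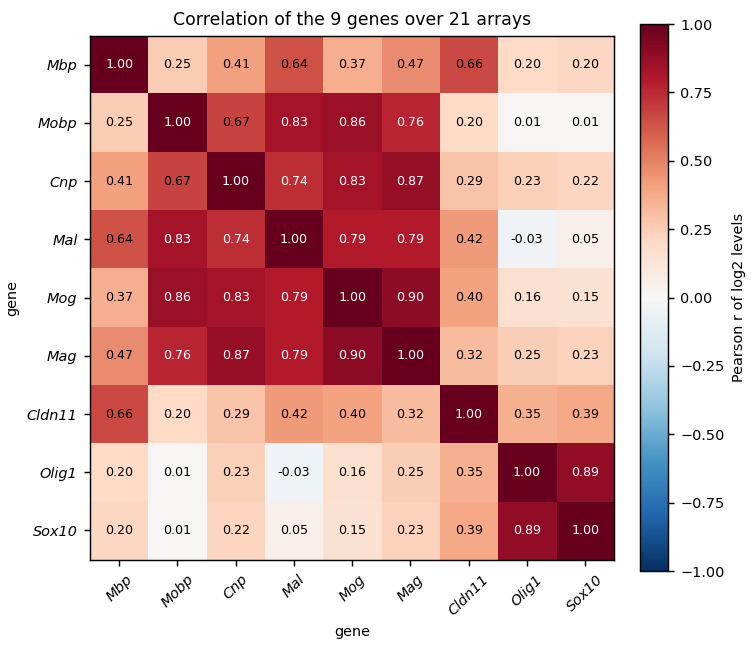
Pearson's r between the log2 levels of each pair of the 9 genes over 21 arrays is given as a number and a colour from -1 to 1. Mog, Mag, Mobp, Cnp and Mal make 1 block (0.67 to 0.90), and Olig1 and Sox10 another (0.89).

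The genes whose levels followed the mean of the 9 genes most closely were found among 8341 ranked genes, as a description. The number of genes above the lowest value on all arrays was 8366, the 9 included, so the 2 sets were not the same. Each of the 9 was centred and scaled over the 21 arrays before averaging. Fa2h, which hydroxylates the fatty acids of myelin lipids, came first with r = 0.89 (rho = 0.84, and r = 0.84 without nontransgenic 6 and 8, the 2 arrays farthest from the median). Ugt8a, which makes galactosylceramide, followed with r = 0.81, and Cers2, which makes ceramides with very long chains, had r = 0.80. Gpr37, a receptor of oligodendrocytes, had r = 0.81. Bcan (0.78), S1pr5 (0.77), Septin4 (0.77), Frmd8 (0.74), Mgll (0.70) and 2610507B11Rik (0.69) made up the 10. The 5 lowest were Alkbh4 (-0.76), Tac2 (-0.72), Bmpr2 (-0.67), Pafah1b3 (-0.67) and Lmnb2 (-0.65).

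Other genes of the lineage were taken by list. Of 13 measured myelin protein genes outside the 9, 3 were lower and 0 higher in dNLS bigenic than in nontransgenic mice (median 0.01, all genes 0), which is 23.1% of the list beside 22.3% of all genes. Ndrg1, a stress-responsive protein found in oligodendrocytes, measured 11.15, 11.57, 11.44, 11.54 and 11.72 in dNLS bigenic mice and 11.65 to 12.08 in nontransgenic mice. Its log2 change was -0.34 ± 0.10 (limma, adjusted p = 0.0168). Cryab, a small heat shock protein, changed by -0.23 ± 0.05 (limma, adjusted p = 0.00284), and Gpm6b, a relative of the main myelin proteolipid, by -0.22 ± 0.06 (limma, adjusted p = 0.0212). None of the 3 calls held with the mean of the gene's probe sets, where the change of Gpm6b turned to 0.25, and that of Gpm6b was also lost without dNLS bigenic 3 or 5 (adjusted p up to 0.142), after centring or quantile normalization, and with the 3′ bias as a term. Ndrg1 was also lower than in WT bigenic mice (-0.43 ± 0.12, limma, adjusted p = 0.0272), a call lost without dNLS bigenic 3 or WT bigenic 1, 2 or 3 (adjusted p up to 0.0888). Klk6, a secreted protease of oligodendrocytes, was lower than in dNLS monogenic mice (-0.49 ± 0.10, limma, adjusted p = 0.0037), with all arrays between 2.06 and 2.86, near the lowest value.

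Of 9 measured enzymes of myelin lipids 0 passed in dNLS bigenic against nontransgenic mice (limma, 1 at an unadjusted p under 0.05, median -0.12), beside 22.3% of all genes. Of 6 other transcription factors of the lineage 0 passed (limma, 0 at an unadjusted p under 0.05), with all 6 lower and a median of -0.31. Against the same nontransgenic mice, 5 of these 6 were lower in WT bigenic mice (median -0.63) and 6 in dNLS monogenic mice (median -0.16). Against WT bigenic mice the median in dNLS bigenic mice was 0.20, with 4 of the 6 higher. None passed in these comparisons. An unadjusted p was under 0.05 (limma) for 2 of the 6 in WT bigenic and 1 in dNLS monogenic against nontransgenic mice. In dNLS bigenic against WT bigenic mice it was so for 1. The 3′ bias was 1.37 to 1.43 in WT bigenic mice and 1.46 to 8.20 in nontransgenic mice, and its part in these levels was not tested. In dNLS bigenic against nontransgenic mice, 1 of 7 channel, junction and transport genes passed, which is 14.3% of the list beside 22.3% of all genes. It was Qdpr, a pterin-recycling enzyme abundant in oligodendrocytes, at -0.22 ± 0.06 (limma, adjusted p = 0.00948). That call was lost without dNLS bigenic 5 (adjusted p = 0.0731). Of 7 precursor markers 1 passed (14.3% of the list, beside 22.3% of all genes): Pdgfra, the growth factor receptor that defines precursors. It measured 10.37, 10.69, 10.74, 10.77 and 11.26 in dNLS bigenic mice and 10.85 to 11.53 in nontransgenic mice, a log2 change of -0.38 ± 0.13 (limma, adjusted p = 0.044). Its mean was 10.80 in WT bigenic mice, where it did not pass, beside 10.76 in dNLS bigenic and 11.17 in nontransgenic mice. The call was lost in 18 of 33 alternatives, among them the fit without nontransgenic 4 and 6 and the omission of any 1 of 15 arrays (all but dNLS bigenic 5, dNLS monogenic 1 and 2, and nontransgenic 3, 5 and 7), with adjusted p values up to 0.128.

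Of 15 measured signals to oligodendrocytes and their receptors, 2 were higher and 2 lower in dNLS bigenic than in nontransgenic mice (median 0), which is 26.7% of the list beside 22.3% of all genes. Rtn4 encodes Nogo, an inhibitor of neurite growth made by both oligodendrocytes and neurons. It measured 13.34, 13.37, 13.31, 13.41 and 13.17 in dNLS bigenic mice, below all 16 other arrays, which began at 13.51. Its log2 change was -0.39 ± 0.03 (limma, adjusted p = 4.32e-07) against nontransgenic mice, -0.29 ± 0.04 (limma, adjusted p = 0.000251) against WT bigenic mice and -0.39 ± 0.04 (limma, adjusted p = 3.46e-06) against dNLS monogenic mice. The second probe set of Rtn4 did not pass (-0.04 ± 0.51, limma), and none of the 3 calls held with the mean of the probe sets. Rtn4r, the neuronal receptor of Nogo, of Mag and of another myelin protein, Omg, measured 8.48, 8.30, 8.17, 8.42 and 8.60 in dNLS bigenic mice and 7.52 to 8.24 in nontransgenic mice. It rose by 0.55 ± 0.13 (limma, adjusted p = 0.00477). It also rose against WT bigenic mice, by 0.67 ± 0.16 (limma, adjusted p = 0.0101), and against dNLS monogenic mice, by 0.65 ± 0.15 (limma, adjusted p = 0.00533).

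Il6st, the shared receptor chain of the interleukin-6 family, measured 10.77, 10.56, 10.67, 10.59 and 10.84 in dNLS bigenic mice, above all 16 other arrays, which ended at 10.44. The change was 0.60 ± 0.07 (limma, adjusted p = 7.23e-06) against nontransgenic mice. It was 0.40 ± 0.08 (limma, adjusted p = 0.00543) against WT bigenic mice, where the adjusted p was 0.0521 without WT bigenic 1, and 0.54 ± 0.08 (limma, adjusted p = 0.000137) against dNLS monogenic mice. Pdgfa, the growth factor that precursors need, measured 11.48, 11.64, 11.56, 11.50 and 11.55 in dNLS bigenic mice, below all 16 other arrays, which began at 11.77. It fell by 0.56 ± 0.11 (limma, adjusted p = 0.00163) against nontransgenic mice, and did not pass against WT bigenic mice. Against dNLS monogenic mice it was -0.40 ± 0.13 (limma, adjusted p = 0.0498), a call lost in 21 of 33 alternatives, 18 of which leave out 1 array (all but nontransgenic 4, 5 and 6), with adjusted p values up to 0.13. The second probe set of Pdgfa did not pass against nontransgenic mice (-0.20 ± 0.22, limma, adjusted p = 0.692).

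Genes of the node of Ranvier and of the paranode, where the sheath is anchored to the axon, split in direction: 3 of 9 were higher and 2 lower in dNLS bigenic than in nontransgenic mice (median 0.18, all genes 0). That is 55.6% of the list, beside 22.3% of all genes (10.8% higher and 11.5% lower). Ank3, the ankyrin that gathers sodium channels at nodes, was 13.01 to 13.20 in dNLS bigenic mice and 12.12 to 12.95 on the 16 other arrays, with no overlap (0.37 ± 0.10, limma, adjusted p = 0.00996, against nontransgenic mice). Cntnap1, the neuronal paranodal protein, was 6.17 to 6.94 in dNLS bigenic mice, 5.86 to 6.41 in WT bigenic mice and 2.04 (nontransgenic 6) to 6.31 in nontransgenic mice. Its change was 1.59 ± 0.52 (limma, adjusted p = 0.0381), lost without any 1 of 9 arrays (all 5 dNLS bigenic arrays, dNLS monogenic 4 and nontransgenic 2, 3 and 4), with adjusted p values up to 0.0845. Without nontransgenic 4 and 6 together it was 1.11 (limma, adjusted p = 0.00417). Kcna2, a potassium channel beside the paranode, rose by 0.58 ± 0.12 (limma, adjusted p = 0.00248) with every array at 3.16 or less, near the lowest value. Cntnap2 and Cntn1, axonal partners at and beside the paranode, fell by 0.31 ± 0.10 (limma, adjusted p = 0.0338) and fell by 0.15 ± 0.04 (limma, adjusted p = 0.0076), in that order. Their means in WT bigenic mice were near those in dNLS bigenic mice, though neither passed there against nontransgenic mice. For Cntnap2 they were 10.98 (WT bigenic), 10.97 (dNLS bigenic) and 11.28 (nontransgenic), and for Cntn1 12.81, 12.80 and 12.94. The call of Cntnap2 was lost without dNLS bigenic 1, 2, 3 or 5 or nontransgenic 1 or 4 (adjusted p up to 0.108), with the 3′ bias as a term and with the mean of the probe sets, and that of Cntn1 after centring. Against WT bigenic mice 1 of these 9 genes, Kcna2, was higher (0.54 ± 0.15, limma, adjusted p = 0.0291; lost without dNLS bigenic 3 or WT bigenic 1, 2 or 3, with adjusted p up to 0.139) and 0 lower. Against dNLS monogenic mice Kcna2 was higher (0.56 ± 0.14, limma, adjusted p = 0.0126) and Cntn1 lower (-0.16 ± 0.04, limma, adjusted p = 0.0164; 0.0598 without dNLS monogenic 4).

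**Figure D5:**
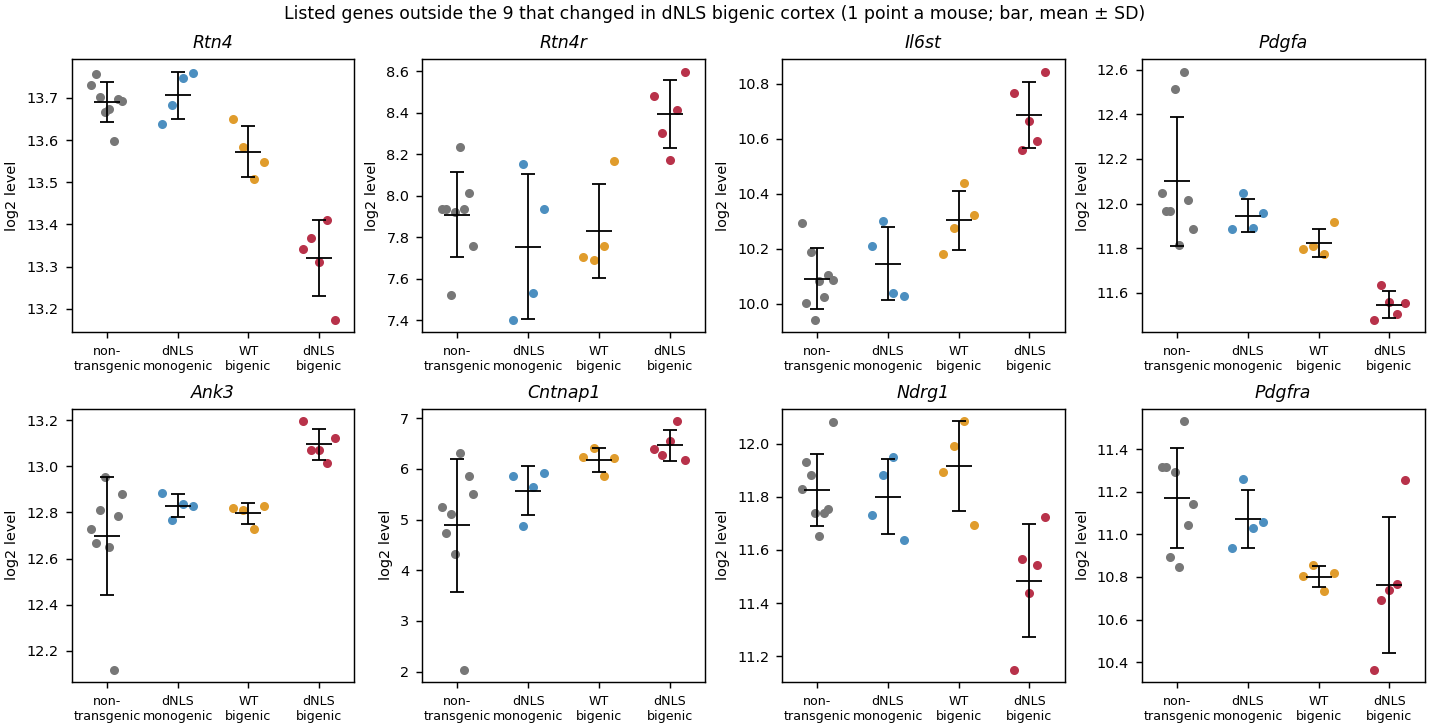
The log2 level of 8 listed genes outside the 9 (vertical axis, a separate scale in each panel) is plotted for each mouse by group, with the group mean and SD. In Rtn4 and Pdgfa the 5 dNLS bigenic points lie below all others, in Il6st and Ank3 above all others, and in Cntnap1 the lowest point (2.04) is nontransgenic 6.

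Marker lists of other cells are given for the same mice, beside 22.3% of all genes called, and their part in the results above was not tested. The mean log2 level of 9 microglial markers, 2 of which were lower in dNLS bigenic than in nontransgenic mice, was 7.01 to 7.72 in dNLS bigenic mice and 7.46 to 8.05 in nontransgenic mice. That of 10 astrocyte markers (1 lower) was 11.12 to 11.41 and 11.29 to 11.51. That of 11 neuronal markers (3 higher, 1 lower) was 11.98 to 12.19 and 11.54 to 12.33. That of 6 excitatory markers (2 lower) was 10.07 to 10.74 and 10.005 to 11.26. For 6 striatal markers (1 lower) the mean was 6.97 to 10.13 and 7.94 to 10.73, and for 5 choroid plexus markers (0 passed, limma, 0 at an unadjusted p under 0.05) it was 4.08 to 6.40 and 3.75 to 5.07. For 6 hippocampal markers (2 lower) it was 5.86 to 6.06 and 6.35 to 6.99, with no overlap. Of these 6, Prox1 and Tdo2 were at the lowest value on all 21 arrays and Dsp on 18. The 2 lower ones were Wfs1 and Neurod1, so that mean is not a measure of the whole list. Of 11 endothelial and mural markers 0 passed (limma, 2 at an unadjusted p under 0.05), with means of 7.31 to 7.54 and 7.41 to 8.11. Of 7 meningeal markers 0 passed (limma, 1 at an unadjusted p under 0.05), with means of 5.89 to 6.62 and 6.18 to 6.95. For 6 thalamic markers (1 higher, 1 lower) it was 5.84 to 6.68 and 6.33 to 6.76. Of the 3 measured Schwann cell markers, Ncmap and Foxd3 were at the lowest value on all 21 arrays, and 0 passed (limma, 0 at an unadjusted p under 0.05).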

How the data were processed

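Values are the deposited log2 levels of the authors, 1 array per mouse, 21 arrays. The submitters' processing notes name Partek without a version or a role, and how the arrays were corrected for background and normalized is not given in the sources used here. Per the labels' protocols, all RNA had an integrity number of 7 or more and was amplified from a poly(T) primer. Array medians ran from 5.76 to 6.05, and 30.7 to 32.4 percent of probe sets were at the lowest value.

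Of 22690 probe sets, 64 controls, 691 with several symbols and 1555 with none were set aside. The other 20380 name 12393 genes. limma 3.58.1 in R 4.3.3 (lmFit, eBayes with intensity trend) was fitted over all 4 groups with sex as labelled, and p values were adjusted over all genes. The fit was tested on simulated data. The p values measure the spread between mice. The members and lists were chosen with earlier results of these data known. Named outside the 9 were, per list, up to 3 passing genes with the largest change in dNLS bigenic against nontransgenic mice and up to 2 in each other comparison, and the 10 and 5 genes most and least like the mean of the 9. Rtn4, Cntnap2 and Tubb3, Cntn1 against nontransgenic mice and Pdgfa against dNLS monogenic mice fall outside that rule and were named after their values were seen. Alternatives were other scalings, probe set choices, covariates, controls and array weights, and leaving out arrays.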

Additional observations from a re-analysis of the deposited data

Results flagged for a closer look

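Of 36 sets of 4 to 8 levels (9 genes in 4 groups), 1 held a mouse far from the others. Mbp in dNLS monogenic 1 was 14.04, and the other 3 dNLS monogenic mice lay between 14.16 and 14.17. Its gap to the nearest of them was 0.92 of the range of the group. By chance, about 1 of 20 groups passes the cutoff used for the flag, so 1 of 36 sets is not beyond that share. The level lies inside the nontransgenic range.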

How the results depend on the processing

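No paired analysis was possible because the labels number the 21 arrays without repeats across groups. Of 1485 values of the 9 genes under 33 alternatives (12 with all or several arrays, 21 leaving out 1 array), 108 changed sign between settings in which neither was called, and 1 changed sign from a called value. With the mean of the probe sets of a gene, Mbp in dNLS bigenic against nontransgenic mice turned to 0.0163 and Gpm6b to 0.25. The number of the 9 genes called there was 0 with centred arrays, quantile normalization, the mean of probe sets, no sex term, or controls of the same line, and 0 to 1 leaving out 1 array. Against dNLS monogenic mice, and over any of the 4 groups, it was 1 with array weights, the 3′ bias as a term, or without nontransgenic 4 and 6, and 0 to 1 leaving out 1 array. Over all genes, WT bigenic against nontransgenic mice gave 152 (centred), 170 (mean of probe sets), 505 (no sex term), 869 (array weights), 163 (3′ bias), 1 (same line) and 424 (without nontransgenic 4 and 6) calls beside 276, and 37 to 579 leaving out 1 array (37 without WT bigenic 1, 579 without nontransgenic 5, and a shift of over 1.5 times also without WT bigenic 2, 3 or 4, dNLS bigenic 2, dNLS monogenic 4 or nontransgenic 2 or 7). dNLS bigenic against nontransgenic mice gave 4247 with array weights beside 2759, and 2365 to 3316 leaving out 1 array. Against WT bigenic mice array weights, 3′ bias and the omission of nontransgenic 4 and 6 gave 3108, 2437 and 2274 beside 1334, and 817 (without WT bigenic 1) to 1925 leaving out 1 array. Against dNLS monogenic mice they gave 4318, 2890 and 2885 beside 1773, and 1373 to 2517 leaving out 1 array. dNLS monogenic against nontransgenic mice gave 0 to 1, the 1 without dNLS monogenic 1. The cause of these shifts was not tested. The arrays give no count of molecules, so the number of arrays limits the precision, and probe sets at the lowest value carry only a bound.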

Other observations

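Among the markers of other cells, neuronal genes split in direction in dNLS bigenic against nontransgenic mice. Thy1, a surface protein of neurons, rose by 0.34 ± 0.04 (limma, adjusted p = 1.4e-05) and lay above all 16 other arrays. Tubb3, neuronal tubulin, rose by 0.20 ± 0.04 (limma, adjusted p = 0.00215). Nefl, the light neurofilament, fell by 0.45 ± 0.07 (limma, adjusted p = 0.000285) and lay below all 16 other arrays. Slc17a6, a vesicular glutamate transporter, fell by 1.54 ± 0.13 (limma, adjusted p = 3.41e-07). It was also the 1 listed gene that passed in WT bigenic against nontransgenic mice, at -0.95 ± 0.14 (limma, adjusted p = 0.0106), a call lost with controls of the same line and with the mean of its probe sets.

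The microglial genes Tmem119 and Gpr34 fell by 0.61 ± 0.15 (limma, adjusted p = 0.00529) and fell by 1.04 ± 0.30 (limma, adjusted p = 0.0196), the latter lost without dNLS bigenic 5 (adjusted p = 0.0576) and with the 3′ bias as a term. The astrocyte gene Aldh1l1 fell by 0.47 ± 0.12 (limma, adjusted p = 0.00667). Wfs1 and Neurod1, listed as hippocampal markers, fell by 1.58 ± 0.12 (limma, adjusted p = 1.06e-07) and fell by 1.21 ± 0.11 (limma, adjusted p = 5.39e-07), in that order, and both lay below all 16 other arrays. Rora, listed for the thalamus, rose by 0.84 ± 0.12 (limma, adjusted p = 8.14e-05) and lay above all 16 other arrays. Counting genes that did not pass too, 6 microglial markers were lower and 3 higher, and 8 astrocyte markers lower and 2 higher. For the hippocampal markers 3 were lower and 2 higher, and for the thalamic markers 4 were lower and 1 higher.

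The calls of Rbfox3, Tbr1 and Penk were lost in some alternatives. Rbfox3, a neuronal nuclear protein, was at 0.63 ± 0.22 (limma, adjusted p = 0.0468), lost in 20 of 33 alternatives. Of these, 16 leave out 1 array (all but nontransgenic 3, 5, 6, 7 and 8), with adjusted p up to 0.107. Rbfox3 was 10.80 to 11.02 in dNLS bigenic mice, above all 16 other arrays, which ended at 10.70. Without nontransgenic 4 and 6 its change was 0.36 (limma, adjusted p = 0.000814). Tbr1, a factor of deep-layer neurons, was at -0.30 ± 0.09 (limma, adjusted p = 0.0298), lost without dNLS bigenic 4 or 5 (adjusted p up to 0.211) and in 5 other settings. The mean of Tbr1 was 11.63 in WT bigenic mice, where it did not pass, 11.66 in dNLS bigenic and 11.92 in nontransgenic mice. Penk, listed for the striatum, was at -1.61 ± 0.51 (limma, adjusted p = 0.0302), lost without dNLS bigenic 1, 2 or 3 or nontransgenic 1 (adjusted p up to 0.0778), with controls of the same line and without nontransgenic 4 and 6.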
